A study of Ovis aries with 16 samples.

Results

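MYC, CEBPB and JUND encode 3 transcription factors whose transcripts were measured in left ventricles of sheep fetuses that had been treated in utero. The members were all probes, control spots aside, whose gene name, sequence name or description in the scanner files gave 1 of these genes. The 3 genes are among 1025 that could be named on the array, and the rule found 4 of its 15008 probes, 2 for MYC and 1 each for CEBPB and JUND. The genes were chosen with the values of the losartan arm in view, so what follows describes that arm for them and tests nothing in it. The angiotensin II arm was not used for the choice and is tested.

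In all, 16 fetuses of 8 twin pregnancies were catheterized in the right femoral artery and vein at day 125 or 126 of a gestation of 145 days. In twin sets 1 to 4 one fetus received intravenous losartan, which blocks AT1, the receptor that carries most known actions of angiotensin II, and in twin sets 5 to 8 one fetus received intravenous angiotensin II itself. The other fetus of each set was left without either drug, which gave 4 groups of 4 fetuses: losartan, the untreated twins of losartan, angiotensin II, and the untreated twins of angiotensin II. Hearts were taken after 5 days, RNA integrity numbers were 7.5 to 10, and each fetus had 1 array. The labels give both a daily and a continuous infusion, and both the free wall and the free wall with the septum, and neither difference could be settled. The stated purpose was to follow growth of the heart and its muscle cells under angiotensin II. The labels name no strain, sex or dose for the fetuses.

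MYC is a basic helix-loop-helix leucine zipper factor that pairs with MAX and drives ribosome production, metabolism and entry into the cell cycle; in heart muscle cells it is known as an early gene of growth stimuli. CEBPB is a basic leucine zipper factor of the CCAAT/enhancer-binding protein family that acts in inflammation, acute phase responses and fat cell formation, and in the adult heart its reduction has been tied to exercise growth. JUND is a member of the AP-1 family, which binds DNA as pairs of JUN and FOS proteins; unlike JUN it is mostly known for holding back proliferation and for restraining cardiac hypertrophy. AT1 signals through kinases that induce FOS, JUN and MYC in cultured heart cells.

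The CEBPB and JUND probes are shown because both lie in the stretch that codes for the leucine zipper, the part through which these factors pair. Each is a 60-base probe given 5′ to 3′ as deposited, in the sense of the transcript, and the capitals mark 3 leucine codons in 1 reading frame, each 7 codons after the last.
CEBPB: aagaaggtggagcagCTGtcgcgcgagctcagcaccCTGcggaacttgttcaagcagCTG
JUND: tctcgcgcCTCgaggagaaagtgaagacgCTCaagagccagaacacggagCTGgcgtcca
Such a run of 3 codons at this spacing, in a frame without a stop, were found in 165 of the 15008 probes (1.099%). The pattern describes the letters of a probe and not how it hybridized. Both probes had a GC content of 60%, and no other probe on the array shared 20 bases in a row with either. The 2 MYC probes start at bases 1638 and 1678 of the transcript as the files number them, 40 bases apart, and have GC contents of 40% and 35%. They share 20 bases, shown because both probes read this stretch of the same transcript and so are no independent replicates of each other.
MYC, shared stretch: agactgaaagatttagccat
The files place none of these probes on a genome and name no build, so no genome position is given.

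Of the 15008 probes, 8970 were tested, namely those well above background on all 4 arrays of at least 1 group, and all 4 member probes were among them. The 75th percentile of the signal on an array was 1099 to 1670 fluorescence units, 8601 to 9615 probes were well above background per array, and none was saturated. The number of arrays, 4 per group, limits the precision. A set of 3 arrays stood apart on the first principal component (32.1% of the variance; scores 30.1 to 39.8, against -19.0 to -0.4 on the other 13): the untreated twin of set 2 and the angiotensin II fetuses of sets 7 and 8, all in 1 row of slide 2. Losartan fetuses lay 1 on slide 1 and 3 on slide 2, and their untreated twins 3 and 1, while the angiotensin II arm had 2 of each group on each slide. Of 24 heart muscle cell markers listed, TPM1 (tropomyosin) and MB (myoglobin) were measured, and both were well above background on all 16 arrays. In tissue RNA, fewer cells of a type and less RNA per cell cannot be told apart.

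MYC was higher in every losartan fetus than in its twin. Levels are log2 signals relative to the 75th percentile of the array, so that 0 is that percentile and each unit is a doubling. The probe at 1638 read 3.19, 3.42, 3.22 and 3.45 in the losartan fetuses of twin sets 1 to 4, and 2.61, 2.68, 2.76 and 2.65 in their untreated twins. The lowest losartan fetus (3.19) lay above the highest twin (2.76), so the groups did not overlap. The probe at 1678 read 1.45, 1.62, 1.44 and 1.69 with losartan and 0.81, 0.82, 1.09 and 0.79 in the twins, again without overlap. Both probes were well above background on all 16 arrays.

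The twin ratios of MYC with losartan were of similar size at both probes. They averaged 0.65 ± 0.16 (SD, n = 4 twin sets) on the log2 scale at 1638, which is 1.56-fold, and 0.67 ± 0.24 at 1678, which is 1.59-fold. By set they were 0.58, 0.74, 0.46 and 0.80 at 1638 and 0.64, 0.80, 0.35 and 0.90 at 1678, lowest in set 3 and highest in set 4 at both. Among all tested probes, 10.5% were higher in 4 of 4 losartan fetuses and 2.75% had losartan levels wholly above those of the twins. Since these values chose the gene, nothing is read from MYC being among them.

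In the angiotensin II arm the MYC groups overlapped. The probe at 1638 read 2.65, 2.62, 2.62 and 3.14 in the treated fetuses of sets 5 to 8 and 2.93, 3.10, 2.70 and 3.01 in their twins. Treated fetuses were lower in 3 of 4 sets and higher in set 8, whose treated fetus lay well above the other 3. The probe at 1678 read 0.67, 0.92, 0.67 and 1.09 with angiotensin II and 0.99, 1.12, 0.80 and 1.26 in the twins, lower in 4 of 4 sets.

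**Figure D1:**
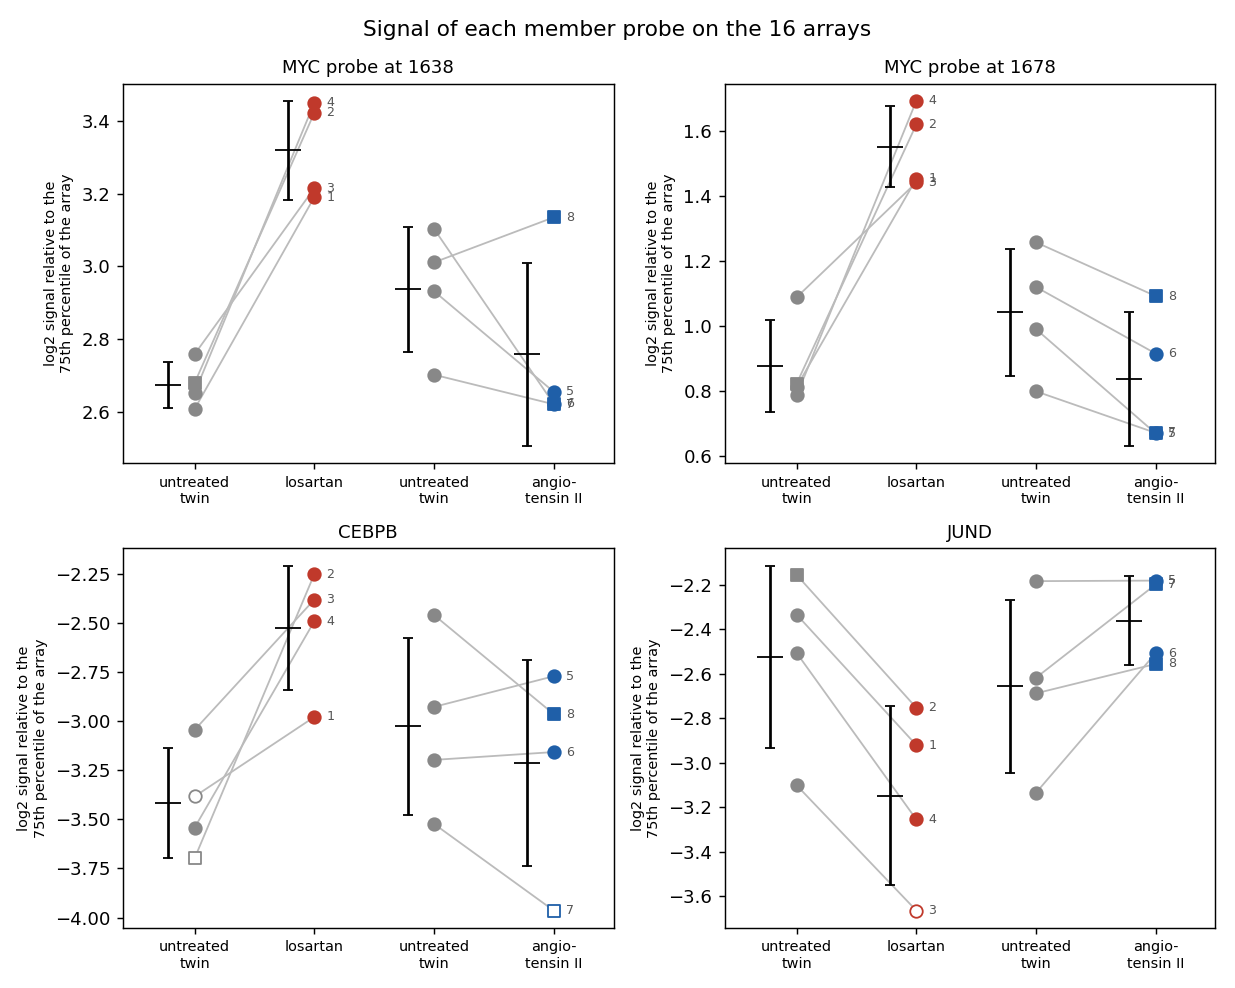
Signal of the 4 member probes on the 16 arrays, as log2 relative to the 75th percentile of the array, with twins joined by grey lines and numbered by twin set; crosses with bars are group means ± SD (n = 4), open symbols are spots not well above background, and squares are the 3 arrays that stood apart. Both MYC probes sit highest in the losartan fetuses, CEBPB also does so with overlap against the untreated twins of angiotensin II, and JUND has its lowest group mean there (-3.15).

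CEBPB had its lowest group mean in the untreated twins of losartan and was higher in all 4 losartan fetuses. Its levels were -2.98, -2.25, -2.38 and -2.49 with losartan in sets 1 to 4, and -3.38, -3.70, -3.04 and -3.54 in the twins. The lowest losartan fetus (-2.98, set 1) lay just above the highest twin (-3.04, set 3), so the groups did not overlap. As for MYC, these values chose the gene, and nothing is read from it being among the 2.75% of tested probes without overlap or the 10.5% higher in 4 of 4 sets. The probe was close to the detection limit: it was well above background on 4 of 4 losartan arrays and on 2 of 4 twin arrays, the twins of sets 1 and 2 being the exceptions. In fluorescence units the losartan arrays gave 212 to 246 and the twins 105 to 173.

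The twin ratios of CEBPB with losartan varied most of the 3 genes. They were 0.40, 1.44, 0.66 and 1.05 in sets 1 to 4, with a mean of 0.89 ± 0.46 (SD, n = 4), or 1.85-fold. The largest ratio came from set 2, whose untreated twin is 1 of the arrays that stood apart, and the estimate without that set was 0.71. Whether background near the detection limit or that array adds to the ratio was not tested.

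With angiotensin II, CEBPB differed from the twins in both directions. The treated fetuses of sets 5 to 8 read -2.77, -3.16, -3.96 and -2.96, and their twins -2.93, -3.20, -3.52 and -2.46. Treated fetuses were higher in sets 5 and 6 and lower in sets 7 and 8, and the ranges overlapped widely. The treated fetuses of sets 7 and 8 are the other arrays that stood apart, and that of set 7 was the only array of this arm not well above background.

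After scaling, JUND was lower in every losartan fetus than in its twin, by nearly the same amount. It read -2.92, -2.75, -3.66 and -3.26 with losartan in sets 1 to 4 and -2.33, -2.16, -3.10 and -2.51 in the twins. The groups overlapped, because the twins themselves ran from -3.10 (set 3) to -2.16 (set 2) and each losartan fetus followed its twin. The twin ratios were -0.59, -0.60, -0.56 and -0.75, a mean of -0.62 ± 0.08 (SD, n = 4), or 1.54-fold lower. The spot of the losartan fetus of set 3 was not well above background, and that of the other 15 fetuses was. The probe was dim, as CEBPB was: 92.3 to 221 fluorescence units with losartan and 167 to 328 in the twins. In set 1 the units were 221 with losartan and 218 in the twin, on arrays with 75th percentiles of 1670 and 1099. The ratio of that set thus comes from the scaling. With normexp background correction the JUND estimate was -0.38. Of all tested probes, 11.1% were lower in 4 of 4 losartan fetuses.

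With angiotensin II, JUND read -2.18, -2.51, -2.20 and -2.56 in the treated fetuses of sets 5 to 8 and -2.18, -3.14, -2.62 and -2.69 in their twins. The ratios were 0.00, 0.63, 0.42 and 0.13, above 0 in 4 of 4 sets, although the value of set 5 (0.0024) was close to none. The ranges overlapped.

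The order of the 4 groups was much the same for MYC and CEBPB and turned over for JUND. At both MYC probes losartan was highest, and its gap to the next group, the untreated twins of angiotensin II, was 0.38 at 1638 and 0.51 at 1678, beyond the larger SD of the pair (0.17 and 0.19) and with no overlap. The other 3 groups of MYC followed each other by less than the larger SD. CEBPB ran from losartan over the untreated twins of angiotensin II and angiotensin II to the untreated twins of losartan, and the first gap alone (0.50) was beyond the larger SD (0.45), with overlapping ranges. JUND was highest with angiotensin II and lowest with losartan. Its last gap (0.49, against the untreated twins of angiotensin II) was beyond the larger SD of 0.40, again with overlapping ranges. The untreated fetuses of both arms differed by -0.13 for JUND, 0.39 for CEBPB, 0.26 for MYC at 1638 and 0.16 at 1678 (angiotensin II arm minus losartan arm). No probe of 8970 passed in that comparison (limma, Benjamini-Hochberg adjusted p under 0.05, 0% called). At an unadjusted p under 0.05 there were 300 probes (3.34%). Of the members, MYC at 1638 alone was among them (SE 0.12, unadjusted p = 0.048 and adjusted p = 0.9998, limma). The untreated fetuses of MYC at 1638 were thus not shown to be alike in both arms. The comparison contains losartan twins whose values helped choose the genes, so nothing more is read from it.

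The losartan ratios were computed again by slide, since slides were unevenly filled. In sets 2 and 3, whose twins shared a slide, the mean ratios were 0.60 for MYC at 1638, 0.57 at 1678, 1.05 for CEBPB and -0.58 for JUND. In sets 1 and 4, whose twins lay on different slides, they were 0.69, 0.77, 0.73 and -0.67 in the same order. Each member had the same sign in every losartan set, so this split could not turn a sign and shows the sizes alone.

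**Figure D2:**
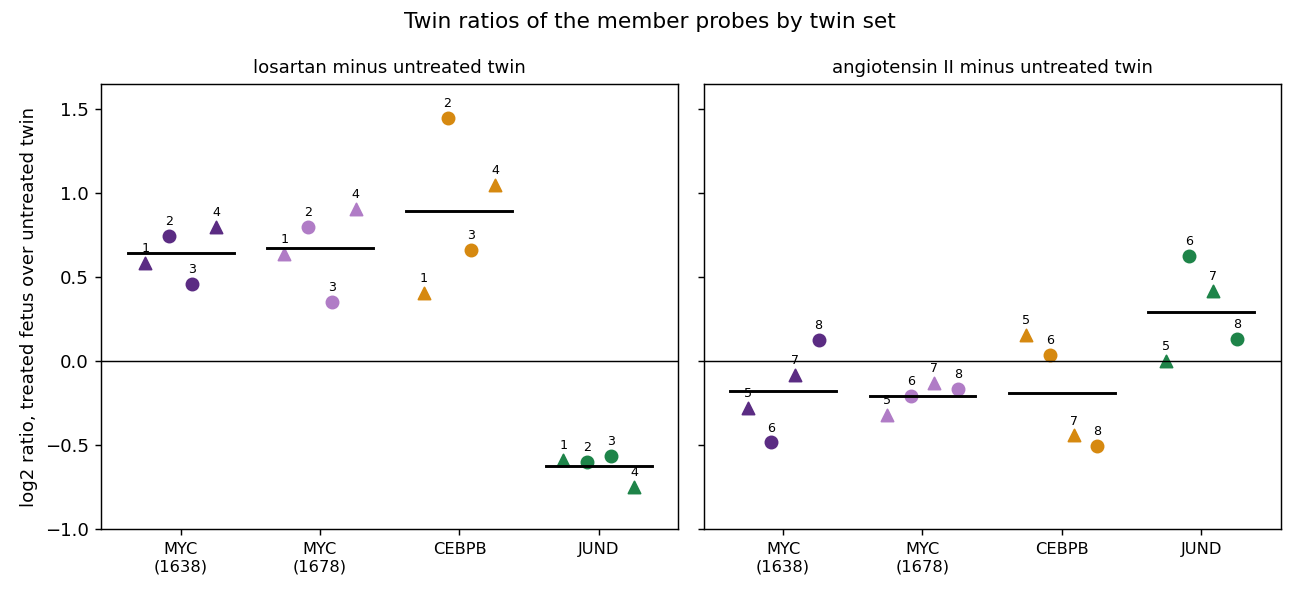
Log2 ratio of the treated fetus over its untreated twin for each member probe, by twin set, with losartan on the left and angiotensin II on the right; circles are twins on 1 slide, triangles twins on different slides, and bars the mean of 4 sets. With losartan the ratios of MYC and CEBPB are all above 0 and those of JUND all between -0.75 and -0.56, while with angiotensin II all means lie within 0.30 of 0.

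None of the member probes passed in the angiotensin II arm. The test was limma over all 16 arrays with the twin set as a block, and 0 of 8970 probes passed an adjusted p of 0.05 (0% called; 937 probes, 10.4%, had an unadjusted p under 0.05). MYC differed by -0.18 at 1638 (SE 0.12, 95% interval -0.44 to 0.09, adjusted p = 0.541, limma), lower in 3 of 4 sets. At 1678 the change was -0.20 (SE 0.11, 95% interval -0.45 to 0.04, adjusted p = 0.496, limma), lower in 4 of 4, as were 11% of all tested probes. CEBPB differed by -0.19 (SE 0.18, 95% interval -0.59 to 0.21, adjusted p = 0.647, limma). JUND differed by 0.30 (SE 0.12, 95% interval 0.03 to 0.56, unadjusted p = 0.0305 and adjusted p = 0.461, limma), higher in 4 of 4 sets, as were 7.8% of all tested probes.

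The exact sign-flip permutation test over the 4 twin ratios, two-sided, can go no lower than p = 0.125. It gave that value for JUND and for MYC at 1678, 0.375 for MYC at 1638 and 0.5 for CEBPB. As folds, the 95% intervals with angiotensin II ran as follows: MYC at 1638 lay between 0.735-fold and 1.06-fold of the twins, CEBPB between 0.667-fold and 1.16-fold, and JUND between 1.02-fold and 1.47-fold. Without twin sets 2, 7 and 8, which leaves sets 5 and 6 alone in this arm, the MYC estimate at 1638 was -0.38 (SE 0.14, adjusted p = 0.909, limma). The estimate at 1678 was then -0.26 (SE 0.16).

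Side by side, the mean changes of all 4 probes had opposite signs in the arms: 0.65 and -0.18 for MYC at 1638, 0.67 and -0.20 at 1678, 0.89 and -0.19 for CEBPB, and -0.62 and 0.30 for JUND (losartan first). The angiotensin II change minus the losartan change was -0.83, -0.88, -1.08 and 0.92 in the same order. These differences contain the losartan values that chose the genes and are given with no test. Of all tested named genes 41.6% were above 0 with losartan and 60.5% with angiotensin II. The share of probes with opposite signs in the arms was not counted, so nothing is read from the opposite signs. CEBPB was higher in 2 and lower in 2 sets with angiotensin II, and the MYC probes share bases. Over all tested probes, 108 of 8970 probes (1.2%) passed with losartan and 146 (1.63%) in the difference of effects, and nothing is read from members being among them. The arms share no fetus, so each mean rests on its own 4 twin pairs.

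Over the 8 twin ratios, both MYC probes ran together (Pearson r = 0.94, with at most 0.29 between them in any set). JUND ran against MYC (r = -0.93 at 1638 and -0.88 at 1678), CEBPB ran with MYC (r = 0.74 and 0.85), and CEBPB and JUND ran against each other (r = -0.80). These correlations span 2 arms whose means differ, the losartan ratios chose the genes, and every point takes all members from the same pair of arrays, so they are a description.

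Other genes of the same families were few among the named probes. Of 22 listed AP-1 genes, JUN, JUNB and FOS were tested. With losartan their changes were -0.30, -0.08 and -0.82, and with angiotensin II 0.47, 0.08 and 0.57, so each had the sign of JUND in both arms, and none passed (limma; FOS adjusted p = 0.157 and 0.463, JUN 0.610 and 0.478). Most tested named genes ran the same way: 41.6% were above 0 with losartan and 60.5% with angiotensin II. FOS, the partner of JUN proteins induced early by growth signals, was lower with losartan in 3 of 4 sets and higher with angiotensin II in 4 of 4. JUNB turned to the other sign under 1 of 4 other scalings in each arm, while FOS and JUN did not. The JUN values came mostly from the arrays that stood apart: its ratio was -1.01 in set 2 and -0.09 to -0.05 in the other losartan sets, and 1.01 and 0.85 in sets 7 and 8 against 0.07 and -0.07 in sets 5 and 6. Without twin sets 2, 7 and 8 the medians of the 3 genes were -0.07 with losartan, where 1 of the 3 passed, and 0.07 with angiotensin II. Of 22 listed C/EBP and CREB/ATF factors, ATF4, the factor of the amino acid stress response, differed by 0.00 and -0.18 and DBP, a circadian factor, by 0.33 and -0.09, and neither passed. Of the 23 listed genes of the MYC network, MAX and its partners included, AURKA alone was named on the array and it was not tested.

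Genes known as MYC targets did not share the sign of MYC with losartan. Of 36 listed, 5 were tested (ODC1, LDHA, CDK4, CCND2 and DKC1), and all 5 estimates were below 0 with losartan, with a median of -0.27 against 0.01 over all 8970 tested probes and -0.04 over the 526 tested named genes, of which 41.6% were above 0. CCND2, a cyclin of the G1 phase, had the largest change (-1.20, SE 0.28, adjusted p = 0.0883, limma) and CDK4, its kinase, differed by -0.27. With angiotensin II 4 of the 5 were above 0, with a median of 0.23 against -0.03 over all tested probes and 0.05 over the named genes, of which 60.5% were above 0. CCND2 (0.61) had the largest value there, and ODC1, the first enzyme of polyamine synthesis, was at 0.17. None of the 5 passed in either arm. CCND2 and CDK4 are also among the cell cycle genes given below, so the lists are not separate observations. DKC1 read -1.37 in set 2, whose untreated twin stood apart, and -0.28 to 0.37 in the other losartan sets. The losartan changes of ODC1 and LDHA were within 0.06 of 0 and turned sign under 1 and 2 of 4 other scalings, and without twin sets 2, 7 and 8 the losartan estimates were 3 above and 2 below 0, with a median of 0.03.

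Genes known as C/EBP-beta targets or acute phase genes had no common direction. Of 30 listed, 7 were tested, 5 above and 2 below 0 in each arm, with medians of 0.09 for losartan and 0.29 for angiotensin II, and none passed. With losartan LPL, lipoprotein lipase, differed by 0.38 and IL1B, an inflammatory cytokine, by -0.26. With angiotensin II LEP, the hormone leptin, differed by -0.40 (adjusted p = 0.458, limma) and CXCL8, a neutrophil attractant, by 0.65 (adjusted p = 0.459, limma). Without twin sets 2, 7 and 8 the angiotensin II median was -0.16. Of 25 listed AP-1 targets 4 were tested and none passed: with losartan TIMP1, an inhibitor of matrix proteases, differed by -0.46 (adjusted p = 0.0513, limma) and VIM, the intermediate filament vimentin, by -0.47, and with angiotensin II TIMP1 by 0.19 and MMP2, a matrix protease, by 0.22 (0.96 in set 7, whose treated array stood apart).

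Immediate early genes, which respond to growth signals within minutes as MYC, FOS and JUN can, were split. Of 6 tested, 3 were above and 3 below 0 with losartan and 4 and 2 with angiotensin II, and none passed. CCN2, a matrix protein known to follow AT1 and mechanical load, differed by -0.90 with losartan (4 of 4 lower, adjusted p = 0.0719, limma) and by 0.59 with angiotensin II (4 of 4 higher, adjusted p = 0.459, limma). CCN1, its relative, differed by -0.51 with losartan, and NFKBIA, the inhibitor of NF-kappa-B, by 0.51 with angiotensin II. The NFKBIA ratio was 1.00 in set 7 and 0.89 in set 8, both with a treated array that stood apart, against 0.17 in set 5 and -0.03 in set 6.

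Cell cycle genes give the growth state against which the 3 factors were set. Of 9 tested, 8 were below 0 with losartan and 5 fell past the threshold (limma; 0.992% of all tested probes did so): CDK1, the kinase of mitotic entry (-2.07, SE 0.22, adjusted p = 0.00236), TYMS, which makes thymidylate (-1.82, SE 0.20, adjusted p = 0.00286), CCNA2, the cyclin of DNA synthesis (-1.88, SE 0.22, adjusted p = 0.00432), PCNA, the replication clamp (-0.73, SE 0.11, adjusted p = 0.0128), and ASPM, a spindle pole protein. ASPM was not well above background on any losartan array and was at least 1.92-fold lower there (mean -2.67 ± 0.44 in the twins, measured -4.50 ± 0.77 with losartan, n = 4 each), with CCNA2 measured on 1 and CDK1 on 2 of the 4 losartan arrays. Under the 4 other scalings CCNA2 ran from -1.84 to -1.15 and CDK1 from -2.03 to -1.33. Under quantile normalization 4 of the 9 genes passed, as many as when the slide was also a block. ASPM was well above background on all 4 arrays of the losartan twins and on 3 arrays of each angiotensin II arm group. It was thus tested only through the group where it was higher, so nothing is read from its being among the 5. The median of the list was -1.20, or -0.94 with ASPM at its bound. MYC, higher in the same fetuses, thus had the sign opposite to 8 of the 9 cell cycle genes, and JUND, lower in them, had the same sign as those 8. With angiotensin II 8 of the 9 were above 0 (median 0.53), led by CCNA2 (0.78) and CDK1 (0.75), and none passed. Over all tested named genes 41.6% were above 0 with losartan and 60.5% with angiotensin II, so the counts of signs run the way most named genes did. There MYC was on the other side of 0 from these 8 and JUND on the same side, with no member past the threshold.

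CDKN1B and CDKN1C, inhibitors of cyclin-dependent kinases that brake the cell cycle, differed by -0.11 and -0.16 with losartan and by 0.02 and 0.07 with angiotensin II, and neither passed. Of the 27 listed growth and patterning factors of the heart 6 were tested, 5 of them below 0 with losartan and 3 with angiotensin II, and none passed. Without twin sets 2, 7 and 8 the losartan estimates were 4 above and 2 below 0, with a median of 0.03. IGF1R, the receptor of insulin-like growth factor 1, differed by -0.30 with losartan (4 of 4 lower) and 0.40 with angiotensin II (4 of 4 higher). IGF2, a fetal growth factor, differed by -0.18 with losartan, and AGTR2, the type 2 angiotensin receptor, by -0.49 with angiotensin II (4 of 4 lower).

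**Figure D3:**
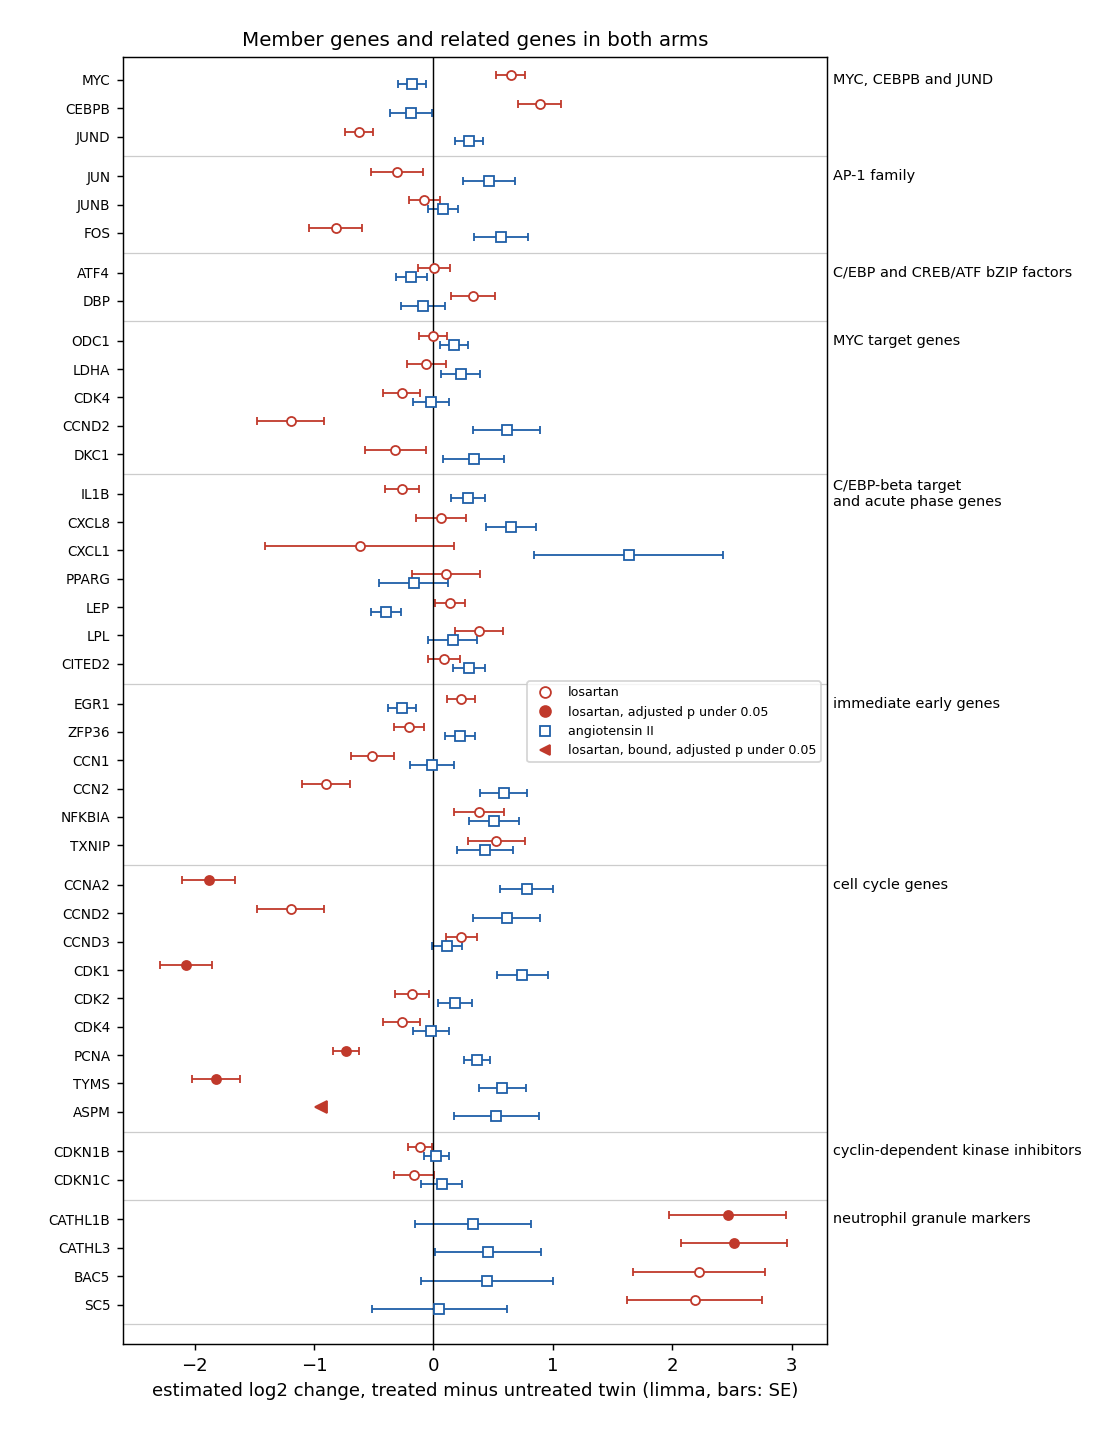
Estimated log2 change (limma, bars ± SE) of the member genes and of related genes on the array with losartan (red circles, filled where adjusted p was under 0.05, with the members drawn as hollow circles since they were chosen on it) and angiotensin II (blue squares). ASPM with losartan is drawn as a bound (triangle). In each arm MYC lies on the side of 0 opposite to 8 of the 9 cell cycle genes, and JUND on the same side as those 8. The exceptions are CCND3 (0.24) with losartan and CDK4 (-0.02) with angiotensin II. CEBPB lies on the side of MYC, but its angiotensin II estimate (-0.19) turned sign under 2 alternatives.

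Some markers of other cells rose or fell with losartan beside the members. All 4 neutrophil granule genes tested were above 0, and CATHL3 and CATHL1B, antimicrobial cathelicidins, rose by 2.52 and 2.46 (adjusted p = 0.0264 and 0.0486, limma; 0.212% of tested probes rose past the threshold). With the slide as a further block none of the 4 passed, and without twin sets 2, 7 and 8 all 4 did. SC5, 1 of the 4, was well above background on all 4 losartan arrays but on 2 to 3 arrays of each other group. It was thus tested only through the group where it was higher, so nothing is read from its part in these counts. The summed signal of the 4, relative to the 75th percentile, was 3.13 to 17.4 with losartan and 0.851 to 2.46 in the twins. Its log2 ratios were 2.77, 0.60, 3.42 and 2.82 in sets 1 to 4, lowest in set 2, where the ratio of CEBPB was highest. CEBPB is also a factor of neutrophil precursors, and the part of these cells in its level was not tested. With angiotensin II the summed signal was 0.844 to 6.26, against 0.697 to 3.42 in the twins.

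Of the smooth muscle markers, CNN1 (calponin) fell by 1.42 with losartan (adjusted p = 0.0249, limma) and differed by 1.09 with angiotensin II. MYLK, the only other one tested, did not pass in either arm. It differed by -0.36 with losartan (1.75 in set 1) and by -0.20 with angiotensin II, where 3 of 4 sets were lower. When the slide was also a block, CNN1 did not pass. The summed signal of both was 4.31 to 5.81 with losartan and 8.71 to 15.9 in the twins, without overlap. Of single tested probes, 4.08% had losartan levels wholly below those of the twins. All 7 tested fibroblast and matrix markers were below 0 with losartan, from -0.54 (COL1A2, a collagen chain, which read -1.40 in set 2) to -0.25, and none passed. Their summed signal was 113 to 144 with losartan and 164 to 188 in the twins. Most tested named genes were also below 0 with losartan, with 41.6% above 0. Macrophage and leukocyte markers (5 tested, CD3E -0.48 and CD14 0.17 with losartan), endothelial markers (KDR -0.34 and PECAM1 -0.03), erythroid markers (HBB 1.15 and EPOR -0.21) and the heart muscle markers TPM1 (-0.07) and MB (0.07) held no gene past the threshold in either arm. Summed heart muscle markers ran from 131 to 151 with losartan and 131 to 155 in the twins. The part of any of these cell types in the values of MYC or JUND was not tested.

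The genes whose twin ratios ran most like each member were taken from 523 named genes by Pearson r over the 8 twin sets. They are a description, since all ratios of a set come from the same 2 arrays and both arms differ in their means. For MYC they included FGF1, an angiogenic growth factor (r = 0.98, and 0.87 over the 16 arrays), and PLIN2, a lipid droplet coat protein (0.89 and 0.40). FGF1 differed by 0.48 with losartan and -0.45 with angiotensin II. For CEBPB they were LEP (0.95 and 0.65), ITGB6, an integrin chain (0.94 and 0.50), and RPS6, a ribosomal protein (0.94 and 0.68). CEBPB and these 3 genes had their highest ratio in set 2 and their lowest in sets 7 and 8, the sets with an array that stood apart. ITGB6 read 1.31 in set 2, -1.40 in set 7 and -1.24 in set 8, against -0.21 to 0.52 in the other sets. The part of those arrays in the likeness was not tested. For JUND they were SNAI2, a zinc finger factor of mesenchymal cells (0.97 and 0.77), PTGER3, a prostaglandin receptor (0.96 and 0.76), and PCNA (0.95 and 0.69). Over the angiotensin II sets alone r with JUND was 0.81 for SNAI2, 0.999 for PTGER3 and 0.55 for PCNA. SNAI2 was well above background on 1 of 4 losartan arrays.

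The losartan values of the members kept their signs in the 19 to 21 alternatives run for each probe. Much of this was fixed beforehand. Every losartan set of a member had the same sign, so leaving out a set could not turn it. Dropping the filter or the twin pairing leaves the estimate as it was. These values also chose the genes, so nothing is read from the signs. Over the alternatives MYC at 1638 ranged from 0.54 to 0.71, MYC at 1678 from 0.54 to 0.78, CEBPB from 0.64 to 1.12 and JUND from -1.02 to -0.38. With angiotensin II the estimates of MYC stayed below 0 (-0.38 to -0.08 at 1638) and those of JUND above 0 (0.06 to 0.53), while CEBPB ranged from -0.77 to 0.40.

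**Figure D4:**
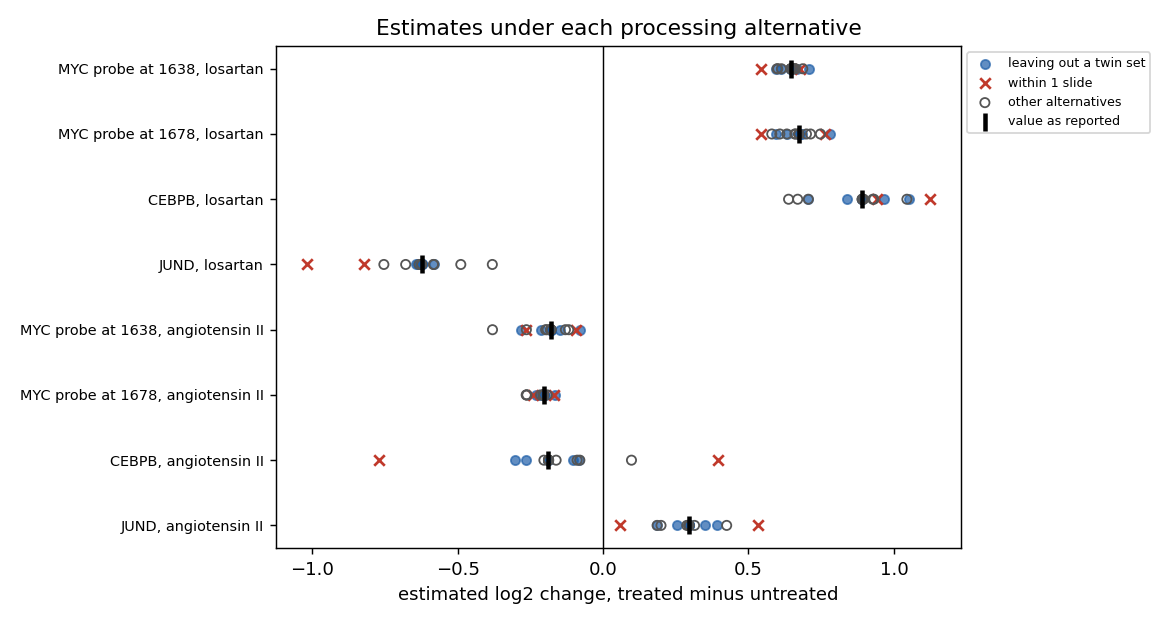
Estimated log2 change of each member probe by arm, as reported (black bar) and under each alternative: leaving out a twin set (blue), within 1 slide (crosses) and all others (open circles). The losartan estimates keep their side of 0, which leaving out a set could not change, and with angiotensin II CEBPB crosses 0 under 2 alternatives.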

How the data were processed

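Total RNA of the left ventricle was amplified, labelled with Cy5 and hybridized to the Agilent sheep array, per the labels. The deposited scanner files hold spot intensity from Agilent Feature Extraction 10.7.3.1, background-subtracted and not normalized between arrays, per the file headers. The authors' deposited value table follows the natural log of the mean signal of the spots (r from 0.998 to 0.999 per array). How it was made is not stated in the sources used here, and it served as an alternative. Its column medians were 5.75 to 5.77.

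Values were log2 processed signals minus the 75th percentile of the array, with control and outlier spots (3 to 9 per array) left out and spots of a probe averaged. The comparisons used limma 3.58.1 in R 4.3.3 on 16 arrays, with the 8 twin sets of the labels as fixed blocks (6 residual degrees of freedom), two-sided, Benjamini-Hochberg over 8970 probes, threshold 0.05. Both sets of untreated twins were compared without a block. The script was tested on simulated data.

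Probes were named through a RefSeq gene table (ARS-UI_Ramb_v3.0): 1709 of 15008 had a name. A gene was represented by its brightest tested probe, and both MYC probes are given. Named from each list were the 2 genes with the smallest p in each arm and every gene past the threshold, and for each member the 3 genes most like it. Withheld items that this rule selects are not reported here. The members, lists and alternatives were chosen with earlier results of these data known. The alternatives were other backgrounds, scalings, filters, blocks and slides, and each twin set left out. Figures used matplotlib 3.10.9.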

Additional observations from a re-analysis of the deposited data

Results flagged for a closer look

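Of 24 groups of 4 values (levels and twin ratios of the member probes), 2 held an array far from the other 3 by Dixon's test at the 95% level. Chance marks about 1 in 20 such groups. The MYC probe at 1638 read 3.14 in the angiotensin II fetus of twin set 8, against 2.62 to 2.65 in the other 3. This array is 1 of those that stood apart on the first principal component. The MYC probe at 1678 read 1.09 in the untreated twin of losartan set 3, against 0.79 to 0.82 in the other 3, and the losartan ratio of that set (0.35) was the smallest of the 4.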

How the results depend on the processing

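With losartan 108 probes passed as reported, 434 in the deposited value table, 57 when all 16 arrays had to be well above background, 71 with the slide as a further block, 41 within slide 1, 548 within slide 2 and 0 with no replicate block, that is without the twin pairing; leaving out a twin set gave 32 (set 3) to 99. For the difference of effects 146 passed as reported, 1734 in the deposited table, 3 with no replicate block, 426 with the slide as a block, 38 within slide 1, 1879 within slide 2, 74 without twin sets 2, 7 and 8, 84 with slide and array row as blocks, and 48 (set 8) to 111 leaving out a twin set. With angiotensin II 0 passed as reported and leaving out any set, 353 within slide 2 and 1 without twin sets 2, 7 and 8. For the untreated twins 0 passed as reported, 227 within slide 2, 1 without twin sets 2, 7 and 8, and 0 to 1 leaving out a fetus (1 without that of set 7). CEBPB with angiotensin II turned to 0.40 within slide 1 and 0.10 without twin sets 2, 7 and 8. The pairing changed no call of a member with angiotensin II. The cause of these changes was not tested. JUND with losartan was -0.38 with normexp, -0.49 in the deposited table, -1.02 and -0.82 within slides 1 and 2, and -0.75 with slide and array row as blocks. Within a slide a lone array of a group is assumed to vary like the others. CEBPB and JUND have no value under the strict filter, since some of their spots were not well above background.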
